A study of Homo sapiens with 9 samples.

Results

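KAS peaks in the short-arm subtelomeres were taken as all peaks of the KAS library whose summit lay before 5 Mb on chromosomes 1, 2, 3, 4, 6, 7, 8, 10, 11, 12, 16 and 20 of GRCh38, and 1139 of the 34247 KAS peaks met this rule. The stretch from 5 to 20 Mb of the same 12 chromosomes, with 1762 peaks, served for comparison. All libraries came from HL-60, a human promyelocytic leukaemia cell line, after differentiation. For the KAS library the labels name an induction of NETosis with phorbol myristate acetate (PMA) for 4 h without giving the dose, followed by N3-kethoxal at 5 mM for 10 min. For the 4 thrombin pulldown libraries they give 500 nM PMA for 4 h and biotinylated thrombin at 1 µM for 1 h. The series also has 4 input libraries, which were not analysed here, and no unstimulated cells were analysed. With 1 KAS library there is no spread between replicates, so its tests and 95% intervals cover counting error only, and the peaks of 1 library are not replicates of a condition. Library totals are not in the peak lists, so depth is unknown.

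Subtelomeres are the chromosome segments that adjoin the telomere, the repeat array that caps each end. In human chromosomes they are rich in genes, GC and segmental duplications, and their outermost stretches share copies between chromosomes. In KAS-seq, N3-kethoxal reacts with guanines whose base-pairing face is exposed, so single-stranded DNA is labelled, as found in transcription bubbles, R-loops and other opened DNA. In NETosis, neutrophils decondense their chromatin and release it as extracellular traps, to which proteins of blood clotting such as thrombin can bind.

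Promoters are shown first, since theirs was the only sequence at hand. They held only a few of the 1139 members, and the sequence under the others was not read. The composition given here is thus not that of the members in general. Of 767 protein-coding promoters in the windows (555 genes, 250 bases before to 50 after the start), 15 held a KAS peak, which is 1.96% (exact 95% interval 1.10 to 3.21). Over all 22199 protein-coding promoters this share was 1.06%, and it was 0.973% (0.504 to 1.69; 12 of 1233) from 5 to 20 Mb, so the intervals of both windows overlap. The 4 promoters with the most bases under a member are printed 5′ to 3′ on the gene's strand from RefSeq (GRCh38.p14), with the bases inside the KAS peak in capitals. CREBBP, a histone acetyltransferase, lies on the minus strand with its promoter at chr16:3880071-3880370. OTOP1, a proton channel, has its promoter on the minus strand at chr4:4226880-4227179. NKX1-1, a homeobox gene, has its promoter on the minus strand at chr4:1406393-1406692. TSPAN4, a tetraspanin of migrating cells, has this promoter on the plus strand at chr11:849606-849905.
CREBBP: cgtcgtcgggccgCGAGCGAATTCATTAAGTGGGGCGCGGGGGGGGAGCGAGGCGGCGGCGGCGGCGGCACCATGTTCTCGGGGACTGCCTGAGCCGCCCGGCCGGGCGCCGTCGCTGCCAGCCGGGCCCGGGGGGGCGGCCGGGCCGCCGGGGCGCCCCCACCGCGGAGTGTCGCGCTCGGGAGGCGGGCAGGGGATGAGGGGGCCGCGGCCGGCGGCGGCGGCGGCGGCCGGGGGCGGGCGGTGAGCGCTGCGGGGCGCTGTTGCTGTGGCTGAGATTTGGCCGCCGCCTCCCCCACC
OTOP1: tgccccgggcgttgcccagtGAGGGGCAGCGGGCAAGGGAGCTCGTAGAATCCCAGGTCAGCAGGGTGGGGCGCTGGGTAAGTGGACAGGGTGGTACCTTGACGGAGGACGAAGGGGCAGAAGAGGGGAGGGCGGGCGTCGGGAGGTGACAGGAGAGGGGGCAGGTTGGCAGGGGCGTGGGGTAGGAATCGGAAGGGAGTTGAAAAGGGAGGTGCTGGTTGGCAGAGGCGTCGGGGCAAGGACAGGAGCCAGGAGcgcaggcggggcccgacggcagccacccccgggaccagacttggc
NKX1-1: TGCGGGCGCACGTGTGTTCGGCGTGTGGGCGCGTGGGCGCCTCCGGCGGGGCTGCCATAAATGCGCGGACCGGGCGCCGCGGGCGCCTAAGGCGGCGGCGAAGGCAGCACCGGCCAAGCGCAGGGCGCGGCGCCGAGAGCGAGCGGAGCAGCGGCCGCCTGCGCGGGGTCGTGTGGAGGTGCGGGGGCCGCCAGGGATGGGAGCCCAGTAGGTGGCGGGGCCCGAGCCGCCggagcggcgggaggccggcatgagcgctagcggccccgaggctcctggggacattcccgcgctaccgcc
TSPAN4: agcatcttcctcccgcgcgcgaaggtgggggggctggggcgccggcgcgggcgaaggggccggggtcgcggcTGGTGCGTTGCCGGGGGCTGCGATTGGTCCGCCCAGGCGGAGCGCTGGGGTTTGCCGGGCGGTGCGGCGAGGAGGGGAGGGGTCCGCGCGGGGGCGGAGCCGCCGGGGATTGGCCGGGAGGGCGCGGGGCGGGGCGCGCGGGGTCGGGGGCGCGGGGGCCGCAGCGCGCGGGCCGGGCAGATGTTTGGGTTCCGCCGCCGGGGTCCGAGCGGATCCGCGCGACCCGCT
The peak covered 287 of the CREBBP bases, 235 at OTOP1, 231 at NKX1-1 and 228 at TSPAN4. The authors' fold enrichment (signal over the caller's background) of these peaks was 5.06, 5.15, 4.35 and 4.18, and their pileup (reads stacked at the summit) was 8, 9, 7 and 7. All 4 were below the median pileup of 10 among members. GC content was 82%, 69%, 78.7% and 82%, and the numbers of CpG were 50, 19, 48 and 52. OTOP1 stood apart from the other 3, with few CpG and long purine-rich runs of G on the printed strand. Over the 15 promoters with a peak the median GC content was 80%, against 68% in the 752 without one. The median number of CpG was 47 with a peak and 26 without. A G-quadruplex-type pattern, GGG in 4 runs with 1 to 7 bases between them on either strand, was present in 11 of the 15 (73.3%), in 39.9% of the 752 and in 30.4% of all protein-coding promoters. Over all 235 protein-coding promoters with a KAS peak it was present in 71.5%, with a median GC content of 79%. These traits were thus not particular to the windows. A tandem pair of ATTCC or of TTAGGG, on either strand, occurred in none of the 767, and in 0.0450% and 0.00901% of all. The same contrast was seen from 5 to 20 Mb, where the 12 promoters with a peak had a median GC content of 78.7% against 61% in the rest. Genes of the 15 also include DVL1 and CTBP1, which act in Wnt signalling and in transcriptional repression, PRKAR1B, a regulatory subunit of protein kinase A, and PDPK1, a kinase upstream of AKT.

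KAS peaks lay more densely in the outer 5 Mb than farther in, at 18.98 per Mb against 9.79 per Mb. The density ratio was 1.94 (exact 95% interval 1.80 to 2.09; exact binomial test of the counts, two-sided, p = 7.08e-64), and the mean over the whole list was 11.1 per Mb. The test takes peaks as independent, but they were clustered, with 0 to 64 members in single 1 Mb bins. The p-values and intervals of density are therefore too narrow. Counted in steps of 1 Mb over the 12 chromosomes together, there were 257, 274, 233, 228 and 147 peaks in the first 5 steps. The next 5 steps held 145, 182, 117, 144 and 167 peaks, and the last 5 before 20 Mb held 120, 85, 105, 90 and 75. The fall came mostly after 4 Mb, so the fifth step differed little from the sixth. Protein-coding genes fell along the same path, from 16.7 per Mb in the first step to 8.83 per Mb in the fifth.

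**Figure D1:**
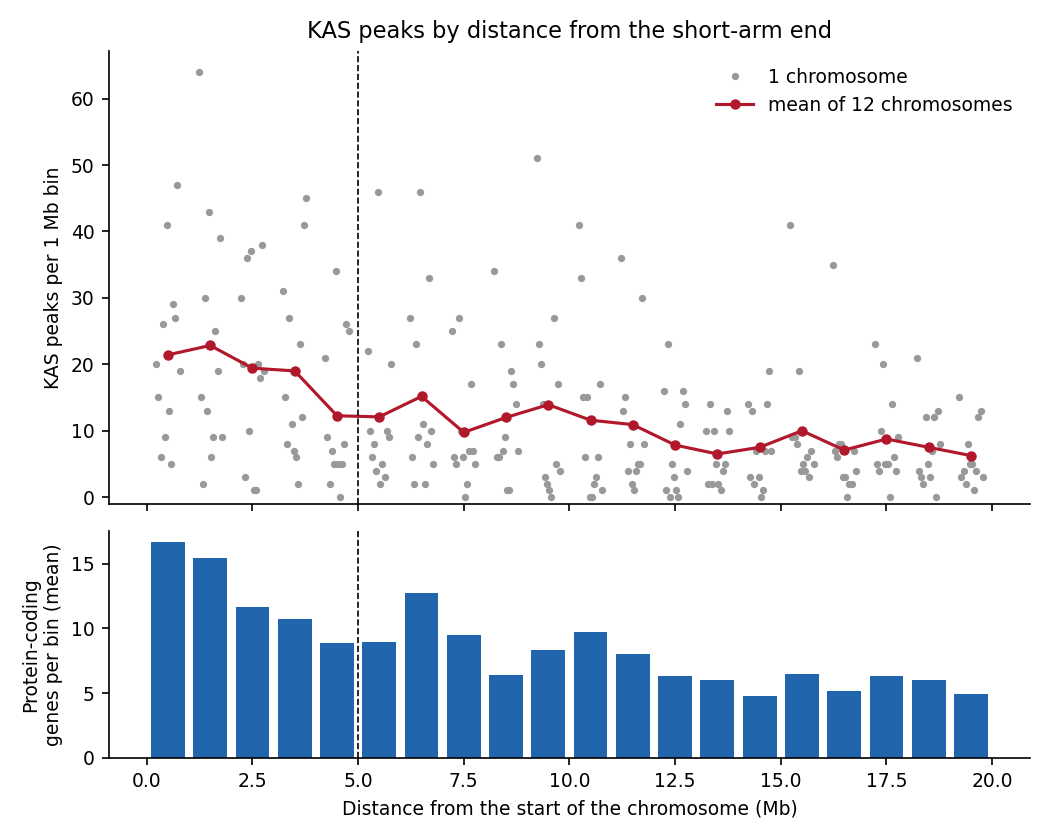
KAS peaks per 1 Mb bin (upper panel; grey points are single chromosomes, the red line is the mean of 12) and mean number of protein-coding genes per bin (lower panel) against distance from the start of the chromosome in Mb. The dashed line marks 5 Mb; both measures are highest in the outermost bins, and single bins range from 0 to 64 peaks within the first 5 Mb.

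The chromosomes were not alike. Of the 12, 9 had a higher density in the first 5 Mb and 1 a lower one at an adjusted p of 0.05 (exact binomial tests, Benjamini-Hochberg over 18 chromosomes). Over all 18 chromosomes tested, which include these 12, 77.8% were called higher and 11.1% lower. The other 6, given below, were also mostly called higher. Chromosome 20 had 23.4 peaks per Mb in its first 5 Mb and 6.67 beyond, a ratio of 3.51 (2.66 to 4.63). Chromosome 7 had 32.4 against 9.60 per Mb, a ratio of 3.38 (2.68 to 4.25). Chromosome 16 was the densest of the 12 with 38.2 per Mb, against 12.9 beyond, a ratio of 2.95 (2.41 to 3.63). Among the 12, these 3 and chromosome 4 (25.2 against 9.27 per Mb, ratio 2.72, 2.12 to 3.49) had the 4 highest ratios against 5 to 20 Mb, an order that depended on the windows. Against 5 to 10 Mb alone chromosome 4 had 1.33 and was not called, and chromosome 7 had 1.49. For the first 3 Mb against 3 to 18 Mb chromosome 20 had 1.48 and chromosome 10 had 3.13. Chromosomes 8 and 11 had ratios of 2.33 and 2.32, chromosomes 2 and 12 of 1.69 and 1.67. Chromosome 1 was dense in both stretches, 33.2 and 27.4 per Mb, and its ratio of 1.21 (1.01 to 1.45) passed narrowly (exact binomial test, adjusted p = 0.0435). Chromosome 3 went the other way, with 4.20 per Mb in the first 5 Mb and 9.67 beyond, a ratio of 0.434 (0.261 to 0.689). Chromosome 6 gave 0.993 (0.701 to 1.39) and chromosome 10, with 17 members, 1.70 (0.880 to 3.18), and neither passed. Among the other 6 chromosomes (5, 9, 17, 18, 19 and X), 5 were called higher and chromosome 18 lower, with 20.8 against 16.2 per Mb together (ratio 1.28, 1.17 to 1.41). The pooled intervals of the 12 and the 6 do not overlap, but the difference itself was not tested.

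**Figure D2:**
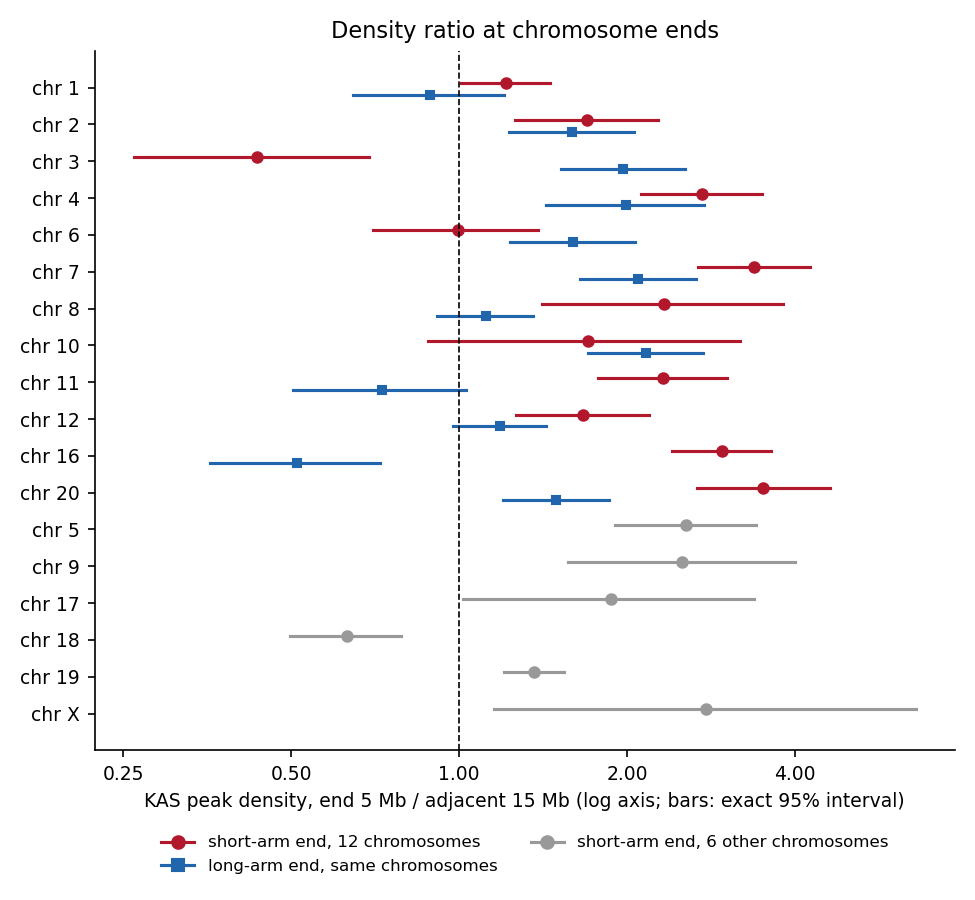
Ratio of KAS peak density in the end 5 Mb to that in the adjacent 15 Mb (log axis), with exact 95% intervals, for short-arm ends of the 12 chromosomes (red), long-arm ends of the same chromosomes (blue) and short-arm ends of 6 other chromosomes (grey). Chromosomes 4, 7, 16 and 20 lie farthest to the right among the 12 short arms, and chromosome 3 lies at 0.434.

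At the other end of the same chromosomes the density was also higher than in the stretch beside it. The last 5 Mb held 1155 peaks, 19.3 per Mb, against 14.2 per Mb in the 15 Mb before, a ratio of 1.35 (1.26 to 1.45, exact binomial test, p = 4.81e-17). This interval lies below that of the short-arm ends, but in the 50% of peaks of higher fold the ratios were 1.73 (1.57 to 1.91) and 2.03 (1.83 to 2.25), with intervals that overlap, and the difference was not tested. Pooled over chromosomes, the density at the tip was similar at both ends, and the stretch behind it was denser on the long arms. This did not hold on every chromosome. Chromosome 8 had 6.2 per Mb at its short-arm tip and 28.4 at its long-arm tip, chromosome 1 had 33.2 and 11. The long-arm stretch was far denser on chromosomes 8 (25.5 against 2.67 per Mb) and 12 (25.5 against 10.1). It was less dense on chromosomes 1 (12.4 against 27.4) and 4 (6.53 against 9.27). Copy number was not analysed here. By chromosome, 7 long-arm ends were called higher and 1 lower. Chromosome 16 had a ratio of 2.95 at its short-arm end and 0.513 (0.357 to 0.720) at its long-arm end. Chromosome 3 showed the reverse, 0.434 and 1.97 (1.52 to 2.54).

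Gene content moved with the density. The first 5 Mb held 728 protein-coding genes, 12.1 per Mb, against 1231 from 5 to 20 Mb, 6.84 per Mb. Among 1 Mb bins with 0 to 4 protein-coding genes the density was 7.41 per Mb near the end and 5.41 farther in, a ratio of 1.37 (1.12 to 1.67). It was 18.1 against 11.4 per Mb in bins with 5 to 14 genes (ratio 1.59, 1.42 to 1.79) and 30.5 against 20.4 in bins with 15 or more (ratio 1.49, 1.32 to 1.69). Within these classes the ratio was therefore smaller than the pooled 1.94, with intervals above 1 in each class. Gene number was matched only roughly, since the class of 15 or more has no upper bound. The classes also mixed bins of different chromosomes, in unlike shares near the end and farther in. Per Mb of protein-coding gene body there were 19.2 members against 10.8 farther in (ratio 1.77, 1.596 to 1.96). Outside gene bodies there were 18.8 against 8.84 (ratio 2.12, 1.90 to 2.37). Near the end, peaks were thus about equally dense inside and outside gene bodies: 54.3% of members lay in bodies, which covered 53.8% of the windows. A further 9.66% lay in other annotated genes and 36.0% in no gene. Base composition also differed, with a median GC content of 68.3% in the promoters of the first 5 Mb and 61% in those from 5 to 20 Mb, and its part in the density was not tested.

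Single megabases ranged from 0 to 64 members, with a median of 16.5 over the 60 bins. The 5 fullest held 240 members, 21.1% of all. The fullest of all ran from 1 to 2 Mb on chromosome 1, with 64 members and 43 protein-coding genes. It was followed by the first megabase of chromosome 16, where the alpha-globin genes lie, with 47 members and 49 genes. Next came 3 to 4 Mb on chromosome 20 (45 members, 25 genes), 1 to 2 Mb on chromosome 7 (43 members, 13 genes) and 3 to 4 Mb on chromosome 16 (41 members, 32 genes). Chromosome 7 stood out from these by its smaller number of genes. The emptiest bins were 4 to 5 Mb on chromosome 10, with 0, and 2 to 3 Mb on chromosomes 10 and 8, with 1 member each. These 3 held 3, 1 and 3 protein-coding genes.

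Peaks also lay closer together. The median distance between neighbours was 21.9 kb, against 37.0 kb from 5 to 20 Mb, and 7.28% of neighbours lay under 1 kb apart, against 3.31%. Where peaks under 1 kb apart were counted as 1, the density ratio was 1.86 (1.72 to 2.01).

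Members were somewhat longer than peaks farther in, with the same median pileup. The median length was 261 against 243 bases, and 10 of 12 chromosomes had the longer median near the end (not chromosomes 3 and 10). The difference of 18 bases was 8 against 5 to 10 Mb alone. The median pileup was 10 in both stretches, with 7 chromosomes higher near the end and 2 lower, and the median fold was 5.55 against 5.43, with 9 higher and 3 lower. The upper tails differed more than the medians. Peaks of 500 bases or longer made up 11.9% of members (10.0 to 13.9), 5.79% (4.74 to 6.98) farther in and 7.66% of the whole list. Peaks of 1000 bases or longer numbered 23 among members, 2.02% (1.28 to 3.01), against 5, 0.284% (0.0922 to 0.661), farther in and 1.56% of the whole list. The share of very long members thus differed more from the adjacent stretch, which is low, than from the list. In density, the long peaks of 500 bases or more had a ratio of 3.97 (3.05 to 5.19), and the shorter ones 1.81 (1.68 to 1.96). A pileup of 30 or more was found in 2.63% of members against 0.738% farther in, though in 4.67% of the whole list. None of the members reached the ceiling of 200 at which pileup stops in these lists, as 32 peaks elsewhere did. With 1 library, lengths and pileups were described without a test.

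**Figure D3:**
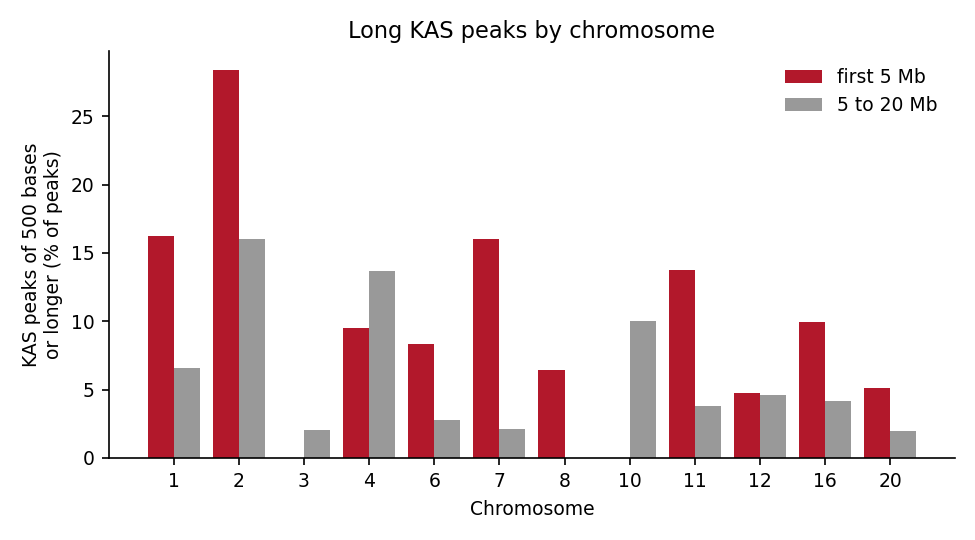
Share of KAS peaks that were 500 bases or longer, in percent, in the first 5 Mb (red) and from 5 to 20 Mb (grey) of each of the 12 chromosomes. The share was higher near the end on 9 chromosomes, highest on chromosome 2 at 28.4%, and lower on chromosomes 3, 4 and 10.

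By chromosome, the share of long peaks was highest on chromosome 2, where 21 of 74 members (28.4%) reached 500 bases, against 16.03% farther in. The widest gap was on chromosome 7, with 16.05% against 2.08%. Chromosome 4 was reversed, with 9.52% against 13.7%, and chromosomes 3 and 10 had no long member among 21 and 17. Long members were no more often in protein-coding genes (54.8%) than shorter ones (54.3%). Their median fold was 6.56, and that of the shorter ones 5.43.

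The longest member spanned 2770 bases at chr2:1595226-1597995 in the lncRNA gene LALTOP, with a pileup of 29 and a fold of 4.90. The next, 2117 bases at chr16:857510-859626, lay in LMF1, which is needed for the maturation of lipases. Further ones were 1881 bases at the tip of chromosome 20 in no gene, 1825 bases in EIPR1 on chromosome 2, a gene of endosomal transport, and 1525 bases in MAD1L1 on chromosome 7, a gene of the spindle checkpoint. The remaining 3 of the 8 longest were 1491 bases beside FNDC10 on chromosome 1, 1365 bases in CHLSN on chromosome 7 and 1234 bases in the lncRNA gene LINC01409 on chromosome 1. None of the 8 was among the 12 members of highest fold.

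The strongest member by fold lay in ALLC, the gene of allantoicase, at chr2:3651254-3651557, with a fold of 26.3 and a pileup of 89. It ranked 3 by fold among all 34247 KAS peaks, while the next member ranked only 100. That one, with a fold of 15.2 and a pileup of 26, lay in UNKL at chr16:1368325-1368711. NSD2, a histone H3K36 methyltransferase, followed with 13.2, and CREBBP held another peak inside its body, at chr16:3849329-3849616, with a fold of 12.9 and a pileup of 66. SNPH, which anchors mitochondria in axons, had 12.8, RAB11FIP3, an effector of the recycling GTPase Rab11, had 12.7 and 11.9 at separate sites, and LMF1 had 12.5. The others of the first 12 were ARHGEF10 with 11.9, BPHL with 11.8, a site 333 kb from CNTN6 on chromosome 3 with 12.3, and LOC105374343 with 11.5. Of these 12, 10 lay in protein-coding genes and 5 on chromosome 16. Among all 1139 members, 54.3% lay in protein-coding genes and 191 on chromosome 16. A fold of 10 or more was found in 23 members (2.02%), against 1.14% (0.695 to 1.75) from 5 to 20 Mb and 1.94% of the whole list. The intervals of both stretches overlap.

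Pileup ordered the members differently. The highest, 119, lay at chr1:633959-634198 in MTATP6P1, followed by 99 at the tip of chromosome 20, 89 in ALLC and 77 at chr1:630292-630563 in MTND2P28. MTATP6P1 and MTND2P28 are nuclear pseudogene copies of mitochondrial genes. A further member in MTND2P28 had a pileup of 62 with a fold of only 2.55. The KAS list also held 10 peaks on the mitochondrial genome, and reads shared between it and these copies were not tested. The members in pseudogenes were chosen after their values were seen.

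At the very tips, 5 of the 12 short arms had their first KAS peak within 11 kb of position 1. They were chromosome 7 at 10008, chromosome 1 at 10052, chromosome 12 at 10197, chromosome 10 at 10300 and chromosome 3 at 10542. Pileups at these were 10, 56, 13, 47 and 16, and folds 5.70, 3.93, 7.25, 4.27 and 5.41. Chromosomes 1 and 10 thus had tall peaks over a high background. Assembled chromosomes open with a run of unknown bases followed on several arms by telomere repeats, but the sequence under these peaks was not read here. On chromosomes 16, 20 and 4 the first peaks began at 19.8, 60.3 and 61.2 kb. On chromosomes 2, 11, 8 and 6 they began at 146, 170, 291 and 345 kb. The first 100 kb held 23 members in all and the first 500 kb 113. Leaving out the first 100 kb gave the same ratio of 1.94. At the inner border on chromosome 16, which had most members, the last peaks inside had folds of 6.37 and 6.42, and the first outside 4.14 and 7.77.

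Genes in the windows held a KAS peak in their body about as often as genes elsewhere. Of the 728 protein-coding genes, 265 did, 36.4% (32.9 to 40.0), against 36% of all 19866 protein-coding genes and 32.1% (29.5 to 34.8) from 5 to 20 Mb. Subtelomeric genes were shorter, however, with a median of 15.2 kb against 26.2 kb. Among genes of like length the share was higher near the end in each class. It was 8.07% (5.18 to 11.9) against 2.86% (1.38 to 5.19) under 10 kb and 43.6% (37.9 to 49.4) against 28.0% (24.0 to 32.3) from 10 to 50 kb. From 50 to 200 kb it was 73.8% (65.0 to 81.3) against 57.5% (51.9 to 63.0). In the 25 genes of 200 kb or more it was 92% (74.0 to 99.0) against 74.7% (64.8 to 83.1), with intervals that overlap, as they do narrowly under 10 kb. These differences were not tested. A peak within 1 kb of either gene end was found at 79 genes, 10.9% (8.69 to 13.3), against 6.51% of all protein-coding genes and 5.61% (4.39 to 7.04) from 5 to 20 Mb. Peak density as a whole was also higher in the windows, by a ratio of 1.94. The higher share thus cannot be called particular to gene ends, and it was not tested. None of the 53 miRNA hairpins in the windows lay under a member. Members covered only 375815 bases of the 60 Mb, so this says little about miRNA genes.

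**Figure D4:**
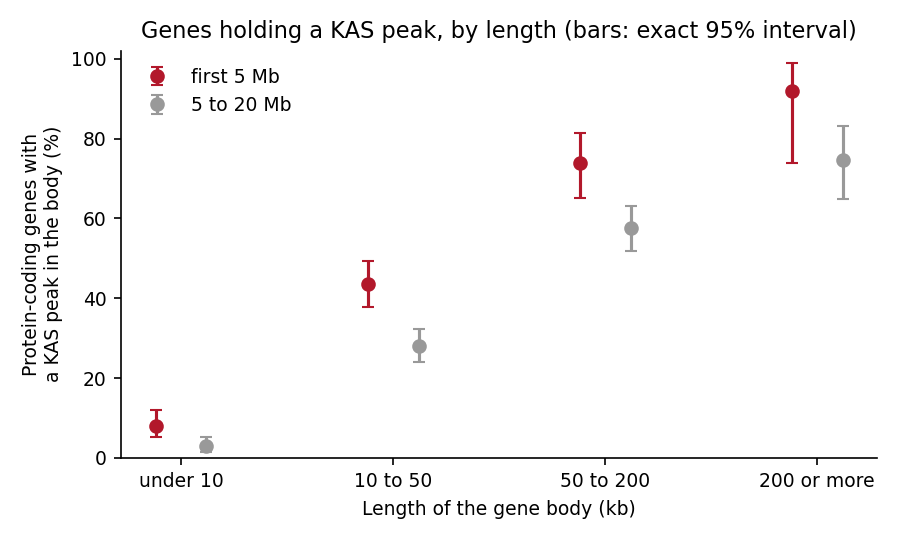
Share of protein-coding genes with a KAS peak in the body, in percent with exact 95% intervals, by length of the gene body in kb, in the first 5 Mb (red) and from 5 to 20 Mb (grey). In each of the 4 length classes the share was higher near the end, and the intervals overlap in the shortest and the longest class.

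Members were spread over many genes: 264 held at least 1, 126 of them exactly 1 and 29 of them 5 or more. The 12 genes with the most members held 109 gene-overlapping members together. PRDM16, a zinc finger regulator of blood stem cells and brown fat, and ERC1, a scaffold protein, held 12 each, at 3.25 and 2.37 members per 100 kb of body. FAM193A and CSMD1, a very long gene of a membrane protein with sushi domains, held 11 each, at 5.58 and 0.534 per 100 kb. PRKAR1B held 10 (5.56 per 100 kb) and SNX8, a sorting nexin, 9 (8.76 per 100 kb). ADAP1, a GTPase-activating protein for Arf6, and SDK1, an adhesion molecule of synapses, held 8 each, at 13.9 and 0.827 per 100 kb. RADIL, ERICH1, STIM1 and MAD1L1 held 7 each, as did ADARB2, which tied with them. Of the first 12, 6 lie on chromosome 7, which held 162 of all 1139 members. The mean over all protein-coding genes in the windows was 1.91 per 100 kb, so long genes such as CSMD1 and SDK1 were below it despite their counts.

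Among genes with at least 5 members, ADAP1 was the densest. Its 8 members on chromosome 7 ran from 902269 to 954754, with pileups of 7 to 45 and folds of 3.93 to 8.60, and the last of them reached into the promoter. TRPM5, a cation channel of taste cells, followed with 12.3 per 100 kb, CPLX1, a complexin of vesicle release, with 12.1, RNF4, a SUMO-targeted ubiquitin ligase, with 10.7, and CHID1 with 10.6. FOXM1, a cell cycle transcription factor named after its values were seen, had 4 members in 19.5 kb, 20.5 per 100 kb.

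Gene groups are described by counts, without a test, and their gene lengths differed. Over all protein-coding genes of the windows, 264 of 728 (36.3%) held a member, at 1.91 members per 100 kb and a median body of 15.2 kb. Of 11 long genes, most of them neuronal or adhesion genes, 10 held a member (90.9%), with a median body of 417 kb and 0.872 members per 100 kb. The strongest were in SNTG2 (fold 11.3), DIP2C (9.49), MYT1L (9.16) and PRDM16 (8.99). PRDM16, which is neither kind of gene by its best-known roles, supplied 12 of the 49 members of this list. Of the 11p mucins, genes of secreted gel-forming proteins, 3 of 4 held 11 members together, at 7.76 per 100 kb: MUC2 with a fold of up to 9.84, MUC5B with 6.74 and MUC5AC with 5.06. This was the highest density of the lists, in genes with a median body of 37.4 kb. The fourth, MUC6, had none. Of 10 listed 4p genes of mixed function, 7 held a member (70%, 2.91 per 100 kb), among them NSD2 (13.2), HTT, the huntingtin gene (7.87), RGS12 (7.25) and LETM1 (6.68). The growth factor receptor genes FGFR3 and FGFRL1 and the homeobox gene MSX1 held none. Of 6 genes around the 6p forkhead cluster, 4 held one (66.7%, 0.888 per 100 kb): GMDS (7.87), EXOC2 (5.62), DUSP22 (4.47) and FOXF2 (4.14).

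Myeloid and innate immune genes held a member in 7 of 26 cases, 26.9%, with 1.62 members per 100 kb, against 36.3% and 1.91 over all genes of the windows. Their median body was shorter, 10.4 kb against 15.2 kb, and the shares were not matched for length. SIGIRR, an inhibitory receptor of the interleukin-1 family, and SIRPA, the inhibitory receptor for CD47 on myeloid cells, had folds of up to 7.30 each, and STIM1, the calcium sensor of the endoplasmic reticulum, 7.25. STIM1 supplied 7 of the 17 members of this list. A list of housekeeping and cell cycle genes held one in 7 of 23 cases, 30.4%, at 2.67 members per 100 kb. Its share was thus below that of all genes of the windows, and its density above. Among these genes were GAK (7.29), EIF3B (6.43) and FOXM1 (6.21), and FOXM1 supplied 4 of the 17 members of the list. Zinc finger genes held one in 10 of 15 cases (66.7%, 2.44 per 100 kb), always a single member, the strongest in ZNF200 (7.77), ZSCAN10 (6.53), ZNF205 (5.98) and ZNF732 (5.94). In the imprinted 11p region, 3 of 12 genes (25%, 0.984 per 100 kb) held one: IGF2, a fetal growth factor (8.03), KCNQ1, a potassium channel gene with 4 members (6.99), and its antisense RNA gene KCNQ1OT1 (5.06), which lies within it. None of the 5 alpha-globin and none of the 6 beta-defensin genes held one; these bodies had medians of 0.835 and 2.90 kb.

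Thrombin pulldown peaks were rare in the same windows. Replicates 1 to 4 held 3, 1, 6 and 7 there, of 886, 570, 790 and 882 in all, and 0 from 5 to 20 Mb in each list. In density this is a mean of 0.0708 ± 0.0459 per Mb (SD, n = 4) near the end. The difference had the same sign in 4 of 4 libraries (exact sign-flip permutation test, two-sided, p = 0.13, the smallest that 4 libraries allow). All 17 of these peaks lay at only 2 loci, and all 17 overlapped a KAS peak by at least 1 base. The same share over the whole pulldown lists is not given here, so this overlap cannot be called particular to the windows. From the side of the members, 8 of 1139 overlapped a pulldown peak, 0.702% (exact interval 0.304 to 1.38), against 2.13% (1.98 to 2.28) of the whole KAS list. From 5 to 20 Mb 0 of 1762 did, which allows a share of up to 0.170% by the floor of 3 counts and of 0.209% by the exact interval. The 8 members lie at the same 2 loci and are not independent. Their interval is therefore too narrow to set against that of the whole list, and the difference was not tested.

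One locus is the tip of chromosome 20, where no gene is annotated and the nearest protein-coding gene is DEFB125, a beta-defensin, 20.98 to 27.2 kb away. KAS had 6 peaks there, between 60281 and 66690, and pulldown replicates 1, 3 and 4 had 3, 4 and 4, while replicate 2 had none. The tallest KAS peak, chr20:65051-65291, had a pileup of 99 and a fold of 4.28. Over it lay pulldown peaks with pileups of 79, 71 and 74 and folds of 4.19, 3.35 and 3.95 in replicates 1, 3 and 4. The longest KAS peak, chr20:61319-63199, was likewise overlapped in these 3 lists, and 1 of the 6, chr20:64032-64666, in none. Folds at this locus, up to 4.73 in KAS, were below the KAS median of 5.43, though pileups were high.

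The other locus lies in LINC01409, a lncRNA gene on chromosome 1. KAS had 3 peaks there, chr1:788759-789992, chr1:790132-791307 and chr1:791480-791754, with pileups of 38, 43 and 67 and folds of 7.01, 5.51 and 6.91. Pulldown replicates 2, 3 and 4 had 1, 2 and 3 peaks, with best folds of 5.65, 5.76 and 4.54, and replicate 1 had none. The single peak of replicate 2, chr1:790161-790411, ranked 34 by fold in its list of 570. The middle KAS peak was overlapped in 3 lists and each of its neighbours in 2. Each locus was thus held by 3 of 4 pulldown lists, but not by the same 3. Repeats in the sequence and reads that map to several places were not analysed here.

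**Figure D5:**
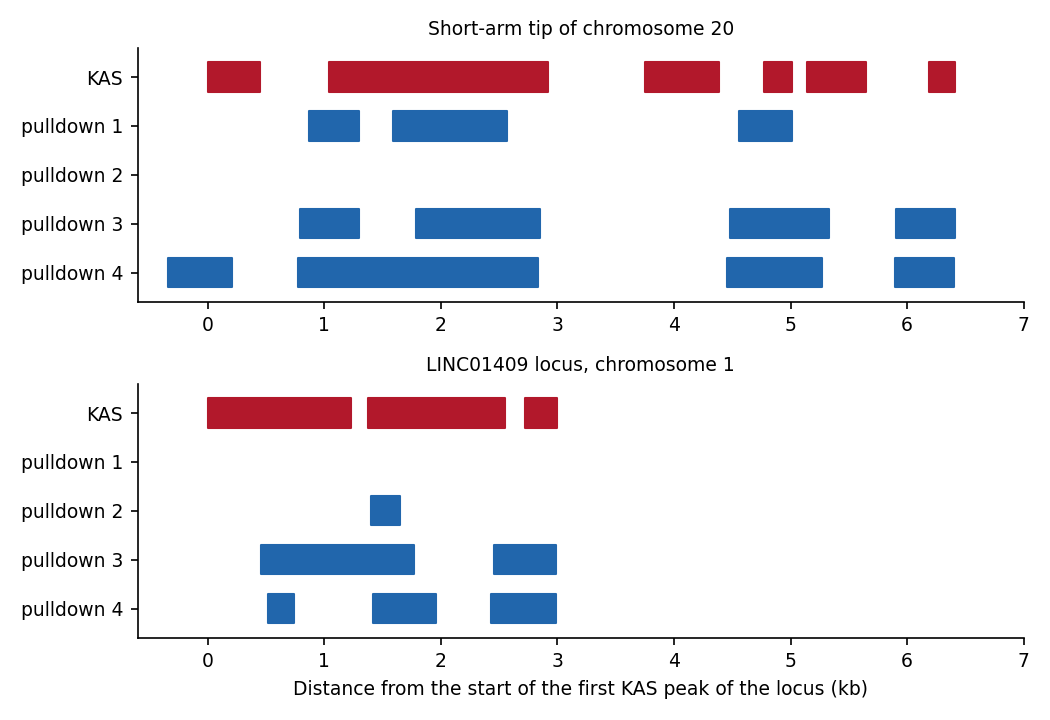
Positions of KAS peaks (red) and of peaks in the 4 pulldown lists (blue) at the tip of chromosome 20 and at LINC01409 on chromosome 1, as distance in kb from the start of the first KAS peak of the locus. At the first locus 3 lists hold 3, 4 and 4 peaks and replicate 2 none, and at the second replicate 1 holds none.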

How the data were processed

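Peak lists of 1 KAS library and 4 thrombin pulldown libraries were used, 1 list per library. Per the submitters' processing notes, the build was GRCh38.p13, and the tools included MACS2 2.2.7.1, BWA and bedtools 2.30.0, next to Picard 2.27.4 and SAMtools 1.6. Their settings, and any use of inputs as control, are not given in the sources. The authors' pileup is a read signal at the summit, not normalized between libraries. The authors' caller also gave each peak a −log10 p and a −log10 q value, of which the latter set an alternative threshold. The authors' fold enrichment is a ratio over the caller's background, used only to describe and rank peaks within a list. The deposited peak length is in bases. KAS peak numbers begin at 1951 on chromosome 1; any peak numbered below that was not used here.

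Peaks were placed by summit. Windows have their full length, unknown bases included, because no genome sequence was used here. Densities were compared by two-sided exact binomial tests given window lengths, with exact conditional intervals of the ratio. Both take peaks as independent and make no allowance for clustering. Chromosomes were adjusted by Benjamini-Hochberg over 18 (acrocentric chromosomes and Y left out). Shares carry exact (Clopper-Pearson) 95% intervals. Pulldown libraries were compared by an exact sign-flip permutation test. Genes and promoters came from RefSeq tables of GRCh38.p14. Of their genes, 718 listed under a chromosome with positions of other scaffolds were left out, 311 of them with starts before 5 Mb on the 12 chromosomes, which leaves 19866 protein-coding genes. The gene table was used without transcripts, so exons and introns were not told apart.

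Named items were the 12 members of highest fold, the 8 longest, the 12 genes with most members, the 6 densest with at least 5 members, up to 4 genes per list by fold, the 5 fullest and 3 emptiest bins, and all peaks shared with a pulldown list. Some items that this rule names are not reported here. Members, lists, length and pileup thresholds were chosen with earlier results of these data known. The labels do not say that pulldown replicates came from separate cultures, so their spread may be technical. The density test was tried on simulated independent counts of known ratio, which lack the clustering of the real peaks. Overlap counting was checked against bedtools on simulated positions. Other steps were not tested in this way. Computation used SciPy 1.17.1 and pandas 2.3.3 under Python 3.11.15, and figures Matplotlib 3.10.9.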

Additional observations from a re-analysis of the deposited data

How the results depend on the processing

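The pooled density ratio of 1.94 kept its direction and its side of the threshold in all 24 alternatives run. These are not independent of each other, since 12 of them leave out 1 chromosome each. The 6 other chromosomes (1.28), counted among them, are a different set. The threshold is on p-values that make no allowance for clustering. For the 12 chromosomes the ratio was 1.51 against 5 to 10 Mb alone, 1.94 for the first 3 Mb, 1.80 for the first 10 Mb and 2.03 in the 50% of peaks of higher fold. Leaving out each chromosome in turn gave 1.81 to 2.16. Grouping bins by gene number, the 6 other chromosomes and the overlap without each replicate were added after seeing the data. By chromosome, 4 rather than 9 were called higher against 5 to 10 Mb, and 0 rather than 1 lower, both there and in the 50% of peaks of higher fold. Fewer peaks entered these tests, and against 5 to 10 Mb ratios also fell, to 1.04 on chromosome 1, 1.33 on chromosome 4 and 1.02 on chromosome 12. The long-arm ratio of 1.35 was 1.62 for the last 3 Mb and 1.73 in the 50% of peaks of higher fold. The overlap with pulldown lists fell from 8 to 5 members when 50% of the KAS peak had to be covered, and was 7 to 8 without each replicate. The pulldown density difference was 0.0708 per Mb, 0.0556 to 0.0889 without each replicate, 0.0417 in the 50% of peaks of higher fold and 0.118 for the first 3 Mb. The planned setting that counts known bases only, and the sequence under peaks, were not run. No paired analysis was possible because the KAS library has 1 replicate and the inputs that share replicate numbers with the pulldowns were not analysed here.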
